A study of Homo sapiens with 24 samples.

Results

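The comparison described here set 293T cells given the ZFX construct titled ZFX12_13 against the same cells given the empty vector pCMV6-Entry, with 3 libraries in each group, 6 of the 24 libraries of the series. The members are the libraries with those titles, and all 19376 genes that passed the filter on low counts were tested. 293T is a line derived from human embryonic kidney, and both groups carried knockouts of ZFX and ZNF711 (DKO in the titles), so the empty vector is the state without either protein's normal gene. The ZFX12_13 libraries carry the treatment label ZFX FLAG and belong to a set of mutant ZFX constructs; the labels do not say what the numbers 12_13 stand for or which residues differ. A further 3 DKO libraries received wild-type ZFX with a FLAG tag (wtZFX). The remaining 15 libraries came from LN-229, a glioblastoma line, and of these the 3 given siRNA against ZFX (siZFX) and their 3 controls (siControl) serve below as a separate readout. The design calls the 3 libraries of a group biological replicates. No library of unedited 293T cells was analysed here, so the values show what the construct added to double-knockout cells and not how close they came to the unedited state.

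ZFX is a zinc finger transcription factor encoded on the X chromosome, and ZNF711 is a closely related paralog on the same chromosome. The protein has an acidic activating region and a C-terminal array of zinc fingers that contacts DNA. It is known to bind just downstream of the start sites of many CpG island promoters and to act there as an activator. The core letters AGGCCT are known from its binding motif, with AGGCCTAG and AGGCCTGG as longer forms.

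The promoter stretches of 3 of the genes that rose most are shown so that the kinds of sequence involved can be seen. They were read from RefSeq promoter entries on GRCh38.p14, and each runs over the 150 bases before the start on the plus strand, 5′ to 3′, with CG dinucleotides in capitals. KCNK3 is at chr2:26692572-26692721, PTH1R at chr3:46877571-46877720 and ANO1 at chr11:69985757-69985906.
KCNK3: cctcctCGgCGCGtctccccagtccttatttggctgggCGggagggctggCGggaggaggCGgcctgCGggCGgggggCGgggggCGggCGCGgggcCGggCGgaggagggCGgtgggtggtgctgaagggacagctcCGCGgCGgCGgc
PTH1R: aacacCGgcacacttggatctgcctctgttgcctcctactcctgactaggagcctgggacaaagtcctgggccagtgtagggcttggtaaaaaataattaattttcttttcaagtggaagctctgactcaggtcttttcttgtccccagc
ANO1: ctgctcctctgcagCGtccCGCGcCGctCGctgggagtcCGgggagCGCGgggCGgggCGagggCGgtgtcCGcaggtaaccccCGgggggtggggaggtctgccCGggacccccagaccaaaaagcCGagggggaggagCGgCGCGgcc
The printed stretch held 19 CG dinucleotides for KCNK3, 1 for PTH1R and 18 for ANO1, so a gene with a CpG-poor stretch stood among the largest rises beside 2 with CpG-rich ones. The RefSeq start of ANO1 lies upstream of the gene's start in GENCODE 29, at base 70078302 of chromosome 11.

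The letters AGGCCT were searched in the whole entry of 250 bases before to 50 after the start (the word reads the same on both strands). Of the 12 largest rises described below, 7 have an entry. The letters were found in 3 of these 7, PTH1R, MPPED1 and NR5A1. Of all 35116 promoters in the table, 10.9% held AGGCCT and 4.12% held AGGCCTAG or AGGCCTGG, whose letters contain AGGCCT. The matches are shown with up to 12 bases on each side and the matched letters in capitals; they were chosen after the values had been seen, and the NR5A1 sequences are from the minus strand.
PTH1R, chr3:46877725-46877754: ctatccttgcttAGGCCTgagccacagaag
MPPED1, chr22:43411768-43411797: ggccgagggccgAGGCCTggcgggcctggc
NR5A1 first match, chr9:124507605-124507634: gccagctggccaAGGCCTctgcagtgcctt
NR5A1 second match, chr9:124507477-124507506: aaagaaggcgagAGGCCTgcagagtcacgt
Counted from the RefSeq start, the PTH1R match began 16 bases after the first base of the transcript. Those of MPPED1 and NR5A1 began 234, 223 and 95 bases before it. The gene starts in GENCODE differ, at base 46877746 for PTH1R, 43411196 for MPPED1 and 124507430 for NR5A1. Relative to these, the PTH1R match lies before the start, the MPPED1 match after it and the NR5A1 matches before it. For PTH1R and MPPED1 the side of the start thus depends on the annotation. Only the MPPED1 match extended to a longer form, AGGCCTGG. Only 11419 of the 14581 protein-coding genes tested have an entry, under 80%, so a comparison of promoter features between risen and fallen genes is void; the matches describe these entries only.

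Gene counts per library ran from 19495791 to 21871589 with the empty vector and from 16223239 to 17339101 with ZFX12_13. Unmapped reads made up 5.13% to 5.44% of the first and 4.04% to 4.17% of the second, a difference in which the groups did not overlap; its part in the results was not tested. Replicate 1 of ZFX12_13 stood apart from its group: chi-square over its degrees of freedom, without ZFX, was 10.1 and 11.1 against replicates 2 and 3, 2.64 between those, and 1.64 to 1.93 among the empty-vector libraries. Among genes at 20 CPM or more it was lower in those with the longest exons (median log2 ratio to its group -0.08 in the top quintile) and higher in those with the shortest (0.10). The count of called genes and the counts of the gene lists against the empty vector are therefore also given without it. Of the markers typical of 293T, NEFM, VIM and LIN28B were well expressed, while PAX8 and SOX11 were near 0. Summed kidney tubule and podocyte markers were 51.1 to 54.7 CPM with the empty vector and 38.5 to 52.0 CPM with ZFX12_13, mostly LRP2, and UMOD was at 0. Summed fibroblast markers were 50.8 to 53.1 CPM and 57.7 to 67.8 CPM, mostly COL1A1, with COL1A2 and FAP at or near 0. Of the immune markers, PTPRC, CD3E and TYROBP were at or near 0. Markers of LN-229 summed to 64.4 to 66.9 CPM and 68.5 to 74.1 CPM. The part of these shifts in the results was not tested.

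The targeted genes were examined first. ZFX was at 218, 218 and 235 CPM (reads of a gene scaled to a common library total with edgeR's TMM factors) with the empty vector and at 22555, 17916 and 16213 CPM with ZFX12_13, a log2 difference of 6.40 (SE 0.14). All 3 ZFX12_13 libraries lay far above the empty-vector libraries, as their label asks. The reads counted at ZFX cannot separate the plasmid's transcript from the edited gene's, and the counts in the empty-vector cells do not show whether protein was made. With wtZFX the level was 16936, 14606 and 15060 CPM, and the difference between ZFX12_13 and wtZFX was 0.28 on the log2 scale (SE 0.11), which did not pass edgeR's quasi-likelihood test (adjusted p = 0.12). ZNF711 was at 313, 301 and 303 CPM with the empty vector and at 264, 258 and 247 CPM with ZFX12_13, a fall of 0.25 on the log2 scale (SE 0.05) with no overlap between the groups.

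Across the genome the construct raised more genes than it lowered, and the rises were larger. By edgeR's quasi-likelihood test at an adjusted p under 0.05, 4045 genes (20.9% of those tested) were higher with ZFX12_13 than with the empty vector and 3041 (15.7%) were lower. The median change was 0.56 among the higher and -0.30 among the lower genes on the log2 scale. At 1.5-fold or more, 1936 genes were higher and 341 lower, and at 2-fold or more 1101 were higher and 90 lower. Without ZFX12_13 replicate 1 the counts were 4088 and 3345, and 3708 of the higher and 2622 of the lower genes kept their call. In bulk libraries a larger share of cells that took up the plasmid and more RNA per cell cannot be told apart.

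**Figure D1:**
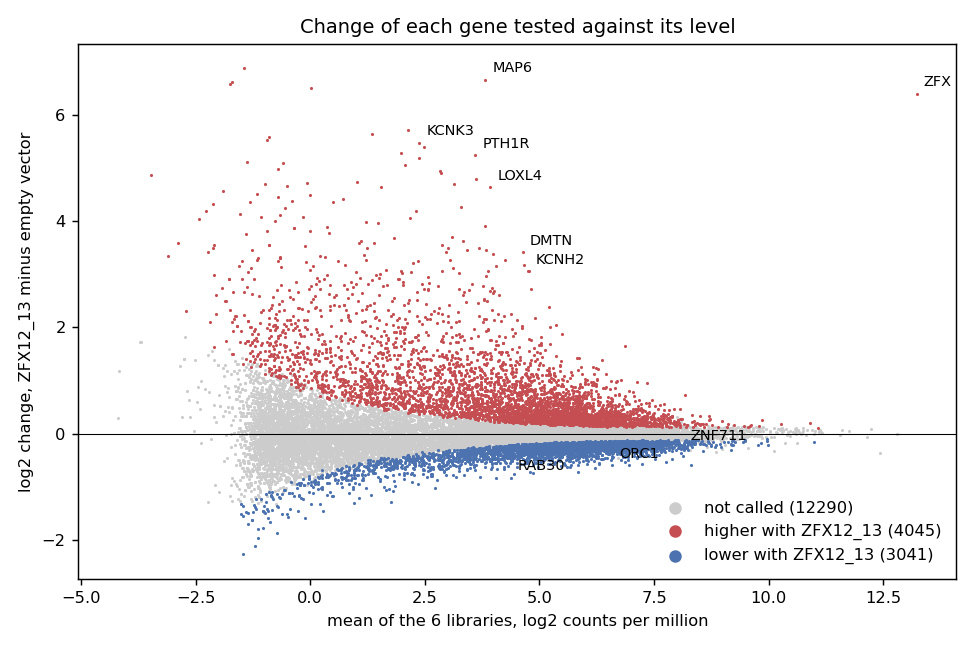
Log2 change (vertical axis, ZFX12_13 minus empty vector) against the mean level of the 6 libraries (horizontal axis, log2 CPM), 1 point per gene tested, coloured by the call. The 4045 higher genes reach far above those not called, up to MAP6 and ZFX, while most of the 3041 lower genes lie close to 0.

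The calls were also counted by level without ZFX. In the lowest quintile of genes by empty-vector level (up to 1.31 CPM) 605 genes were higher and 75 lower, with a median size of called changes of 1.66 on the log2 scale. In the highest quintile (from 68.8 CPM) 602 were higher and 1038 lower, and the median size was 0.23. A gene that is low with the empty vector could pass the filter on low counts through a ZFX group in which it is high, and depth limits the calls of falls there. The split of calls in the lowest quintile is therefore a description only. Exon length moved with the falls too: among genes at 20 CPM or more, 34.7% of the quintile with the longest exons were lower, against 13.2% of the quintile with the shortest. Without replicate 1 these shares were 34.3% and 22.3%. The part of library quality in this was not tested.

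The 12 largest rises among protein-coding genes at 5 CPM or more ran from 15.01-fold to 102-fold, and 10 of them were under 1 CPM on average with the empty vector. Such a gene could pass the filter on low counts and the 5 CPM rule through a ZFX group in which it is high. The rises are therefore a description of the genes named. MAP6, which encodes a microtubule-stabilising protein of neurons, led them. On chromosome 11 at 75586918 to 75669120 (minus strand, GRCh38), it was at 0.272, 0.188 and 0.353 CPM with the empty vector and at 29.1, 28.6 and 26.1 CPM with ZFX12_13. That is a log2 difference of 6.67 (SE 0.19), and it rests on 6, 4 and 7 reads in the empty-vector libraries against 493, 488 and 423. The groups were far apart, and MAP6 went from nearly absent to moderately expressed in every ZFX12_13 library.

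KCNK3, a two-pore potassium channel (chromosome 2, 26692690 to 26733420), was at 0.226, 0.188 and 0.252 CPM with the empty vector and 10.98, 10.1 and 9.37 CPM with ZFX12_13 (log2 difference 5.48, SE 0.23). ANO1, a calcium-activated chloride channel, was at 0.589, 0.375 and 0.353 CPM and then at 13.2, 14.9 and 13.6 CPM (4.95, SE 0.22); 10.7% of its exon bases overlap another gene. Both channels were under 1 CPM in every empty-vector library and at 9 CPM or more in every ZFX12_13 library. PTH1R, the receptor for parathyroid hormone (chromosome 3, 46877746 to 46903799), was at 0.679, 0.469 and 0.707 CPM and then at 23.8, 22.6 and 24.1 CPM (5.24, SE 0.15). IL11, a cytokine of the interleukin-6 family, was at 0.996, 0.469 and 0.454 CPM and then at 18.5, 15.9 and 16.5 CPM (4.70, SE 0.19). The receptor and the cytokine stood at similar low levels before and similar higher levels after, with little spread among the ZFX12_13 libraries.

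2 transcription factors were in the set. ONECUT3 was at 0.317, 0.282 and 0.151 CPM with the empty vector and 10.9, 11.5 and 10.4 CPM with ZFX12_13 (log2 difference 5.40, SE 0.21). NR5A1, the steroidogenic factor of adrenal and gonad, was at 1.18, 1.22 and 0.454 CPM and then at 22.1, 18.3 and 15.8 CPM (4.27, SE 0.19). Secreted and matrix proteins were represented by CHRDL2, a BMP antagonist related to chordin (5.19, SE 0.27), LOXL4, a lysyl oxidase that crosslinks collagen (4.64, SE 0.14), and ADAMTS8, a secreted metalloprotease (3.91, SE 0.13). LOXL4 was at 1.22, 1.13 and 1.16 CPM and then at 28.9, 32.3 and 26.6 CPM. The 12 were completed by CYP46A1, the brain cholesterol 24-hydroxylase (4.91, SE 0.18), and MPPED1, a metallophosphoesterase-domain protein (4.79, SE 0.16). None of the 12 overlapped between the groups, which the rule for naming them required.

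**Figure D2:**
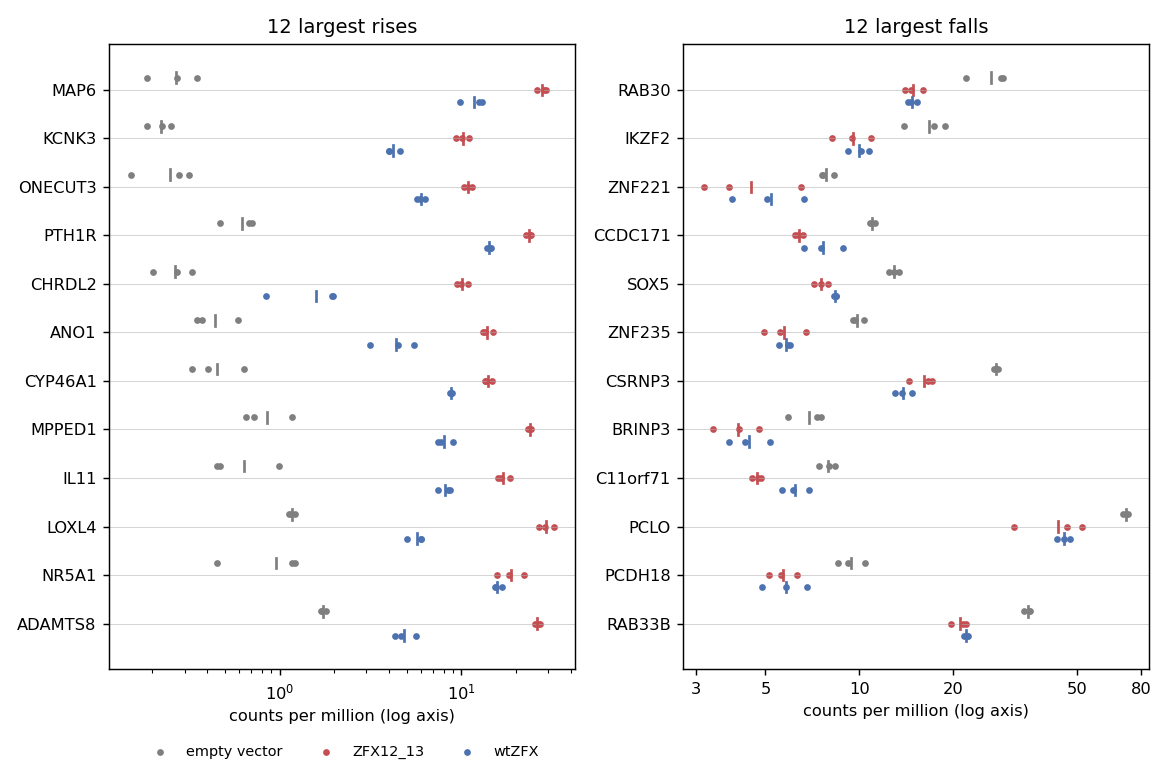
CPM (log axis) of the 12 largest rises and 12 largest falls in each library, with a point per library and a bar at the group mean, for empty vector, ZFX12_13 and wtZFX. By the fitted change between empty vector and ZFX12_13 the rises span more than a factor of 10, while the falls drawn reach at most 1.78-fold. Single libraries can differ by more.

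The 12 largest falls by the same rule were small beside these, from 1.65-fold to 1.78-fold. RAB30, a small GTPase of the Golgi, was at 28.8, 28.5 and 22.0 CPM with the empty vector and 14.05, 16.0 and 14.7 CPM with ZFX12_13 (log2 difference -0.83, SE 0.10). RAB33B, another Golgi GTPase, was at 33.8, 35.2 and 35.1 CPM and then at 22.0, 21.4 and 19.6 CPM (-0.72, SE 0.07). The libraries of each group lay close together for RAB33B, and the 3 empty-vector libraries of RAB30 were more spread. Transcription factors made up 5 of the 12: IKZF2 of the Ikaros family (-0.81, SE 0.12), SOX5 (-0.78, SE 0.10), CSRNP3 (-0.77, SE 0.08) and the zinc finger genes ZNF221 (-0.80, SE 0.21) and ZNF235 (-0.78, SE 0.13). SOX5 was at 12.9, 12.4 and 13.4 CPM and then at 7.14, 7.91 and 7.52 CPM, with narrow groups. For ZNF235, 23.3% of the exon bases overlap another gene, so part of its reads is uncertain.

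PCLO, which encodes the presynaptic scaffold piccolo, was at 71.8, 69.9 and 72.6 CPM with the empty vector and at 31.4, 51.9 and 46.4 CPM with ZFX12_13 (-0.72, SE 0.14). Replicate 1 of ZFX12_13 was its lowest library by a wide margin. That replicate was also the lowest of its group for RAB30, IKZF2, ZNF221, CCDC171, SOX5 and CSRNP3. It was the highest of its group for RAB33B, ZNF235, BRINP3 and C11orf71. PCLO, RAB30, IKZF2, CCDC171, SOX5 and CSRNP3 have more than 8948 exon bases, the lower bound of the longest quintile above. The part of exon length in these falls was not tested. PCDH18, a protocadherin (-0.72, SE 0.14), BRINP3 (-0.75, SE 0.16), CCDC171 (-0.78, SE 0.12) and C11orf71 (-0.75, SE 0.13) complete the set. Each of the 24 leading genes kept its call under every alternative processing tried.

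For the gene lists below, the shares to hold against are 20.9% higher and 15.7% lower over all genes tested, with a median log2 change of -0.01. The lists were chosen with earlier results of these data known and are described by counts and medians, with no test of their own. Members under the filter on low counts are not among those tested, and a member low with the empty vector could pass it through a group where it is high, so counts and medians cover the tested members only. The shares over all genes were 20.4% and 16.7% without ZFX12_13 replicate 1.

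Genes of developmental signalling were counted by pathway. Of the 38 tested genes of the WNT pathway, 22 were higher and 1, WNT5A, was lower, with a median of 0.35; without ZFX12_13 replicate 1 these counts were 21 and 1. WNT ligands bind Frizzled receptors and stabilise beta-catenin. WNT3A was at 2.40, 1.69 and 2.17 CPM with the empty vector and 24.5, 22.1 and 24.5 CPM with ZFX12_13 (3.50, SE 0.14). WNT7B was at 1.09, 1.78 and 1.87 CPM and then at 11.6, 14.2 and 13.8 CPM (3.07, SE 0.15), and WNT9A at 3.67, 2.63 and 3.23 CPM and then at 28.5, 25.6 and 25.2 CPM (3.05, SE 0.11). WNT7A, at 0.136, 0.0938 and 0 CPM before, reached 1.48, 2.23 and 2.04 CPM. The large changes were thus in ligands, which began low, while no Frizzled receptor moved by more than 0.75.

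In the Notch pathway, which signals between neighbouring cells through membrane ligands, 13 of 28 tested genes were higher and 0 lower by edgeR, with a median of 0.31. The counts were the same without ZFX12_13 replicate 1, and 2 genes were lower without replicate 2 and under upper-quartile scaling. DTX1, a ubiquitin ligase that modulates Notch, was at 1.58, 1.74 and 1.16 CPM with the empty vector and 17.4, 19.1 and 19.2 CPM with ZFX12_13 (3.62, SE 0.14). The glycosyltransferase MFNG (1.75, SE 0.25), DTX4 (1.74, SE 0.29) and the ligand DLL4 (1.503, SE 0.21) followed, all from below 2 CPM. Of 19 tested Hedgehog genes 8 were higher and 3 lower, with a median of 0.26. The median was 0.13 without ZFX12_13 replicate 2, and without replicate 1 10 were higher and 2 lower. The ligands SHH (3.24, SE 0.49) and IHH (2.78, SE 0.40) remained at or under 2.10 CPM in every library of both groups. The 3 lower genes were the receptor PTCH1, the transcription factor GLI3 and the co-receptor CDON. In GLI3 and PTCH1 the lowest library was ZFX12_13 replicate 1.

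BMP and TGF-beta genes were near the background, with 10 of 39 higher and 5 lower and a median of 0.04; without ZFX12_13 replicate 1 the counts were 10 and 7, and without pCMV6 replicate 1 or 3 there were 2 lower. Within that list INHBB, an activin subunit, went from 3.26, 2.96 and 3.48 CPM to 26.4, 24.5 and 24.5 CPM (2.96, SE 0.11). LTBP3, which binds latent TGF-beta, went from 30.5, 32.1 and 29.5 CPM to 82.3, 79.6 and 85.2 CPM (1.42, SE 0.06). FGF and ERK feedback genes had 9 of 26 higher and 5 lower, with a median of -0.05, and 10 and 5 without ZFX12_13 replicate 1.

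Interferon-induced genes, which cells switch on in response to viral RNA or interferon, had 20 of 28 tested higher and 1 lower, with a median of 0.80. Of the 34 annotated genes 6 did not pass the filter on low counts, and several others, near 0 with the empty vector, could pass it through the groups in which they are high. The count and median are thus a description of those tested and no sign that the list stands apart. IFIT2 was at 1.77, 1.83 and 1.16 CPM with the empty vector and 5.96, 6.39 and 7.03 CPM with ZFX12_13 (2.01, SE 0.18). OAS2 (2.36, SE 0.47), IFI44 (2.44, SE 0.52) and the chemokine CXCL10 (2.01, SE 0.51) rose to at most 2.28 CPM in any library. The one lower gene was STAT2, a transcription factor that carries the interferon signal, at -0.27 (SE 0.07). The level of the list was similar with wtZFX, with a median of 0.88 over the empty vector; against wtZFX directly 0 of the 28 were higher and 1 lower with ZFX12_13. Without ZFX12_13 replicate 1 the count was 20 higher and 1 lower of 30 tested.

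**Figure D3:**
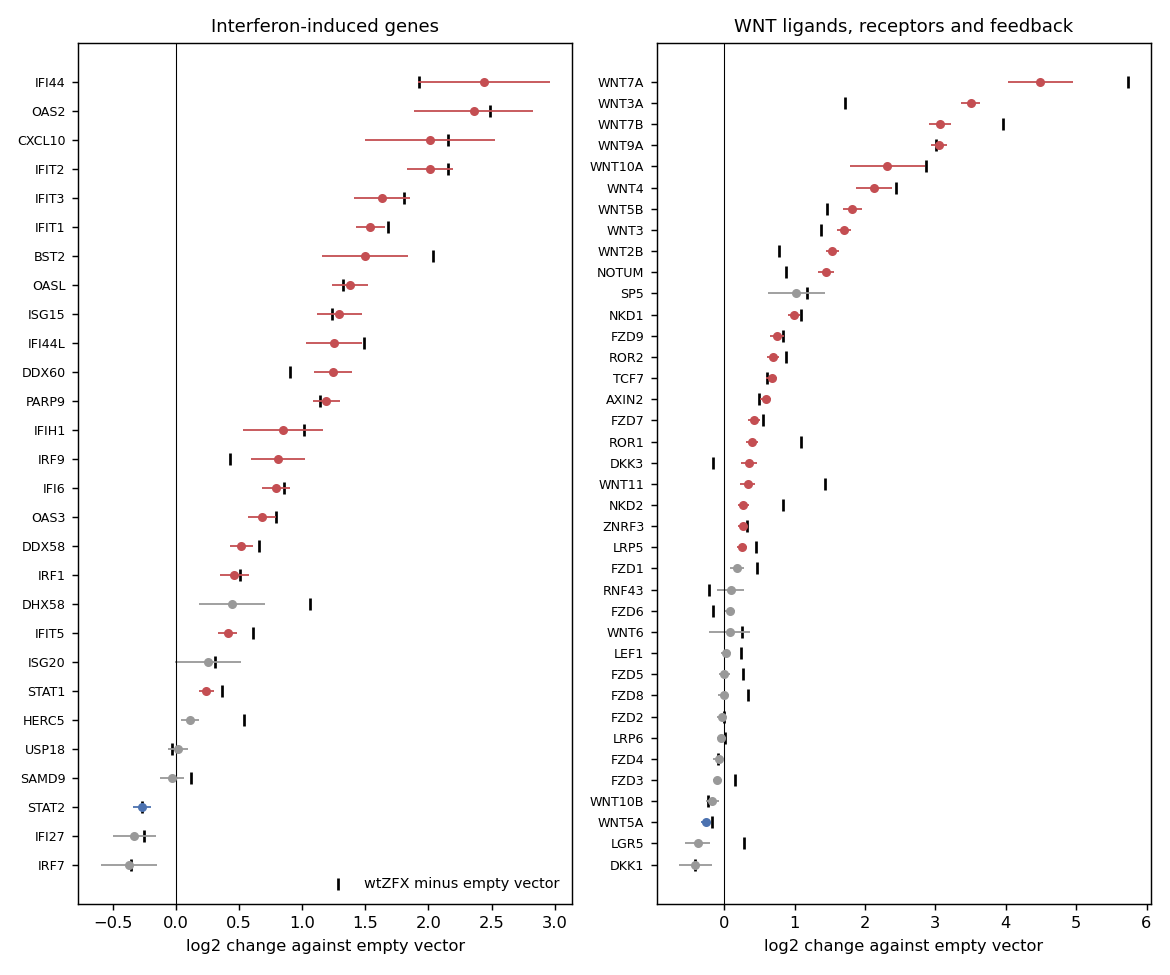
Log2 change against the empty vector for each tested member of the interferon-induced and WNT lists, with points for ZFX12_13 and bars for the SE (red higher, blue lower, grey not called) and black ticks for wtZFX, which shares the control libraries. In the interferon list 20 of 28 points are red (members under the filter on low counts are not drawn), and in the WNT list the rises above 2 are all ligands.

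Genes of neuronal and membrane function moved in both directions. Of 37 tested voltage-gated and potassium channel genes 17 were higher and 7 lower, with a median of 0.30; without ZFX12_13 replicate 1 these were 16 and 4. KCNH2, the hERG potassium channel, was at 5.98, 5.16 and 6.21 CPM with the empty vector and 47.5, 46.9 and 49.8 CPM with ZFX12_13 (3.06, SE 0.09). KCNA2 was at 4.03, 4.27 and 3.89 CPM and then at 18.9, 25.3 and 26.5 CPM (2.53, SE 0.13). Of 52 axon guidance genes 23 were higher and 12 lower, 24 and 10 without that replicate, led by the semaphorin SEMA6B (2.02, SE 0.08), the netrin receptor UNC5A (1.76, SE 0.11) and SEMA3F (1.16, SE 0.08). Neuronal cytoskeleton and synapse genes had 9 of 40 higher and 8 lower, and 11 and 9 of 41 without it. DPYSL4 went from 16.1, 14.8 and 17.5 CPM to 69.2, 61.2 and 68.5 CPM (2.04, SE 0.07), and the neurofilament gene NEFH from 1.77, 1.45 and 2.42 CPM to 6.38, 5.57 and 7.40 CPM (1.78, SE 0.20).

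Matrix, junction and cell-surface genes were counted next. Of 54 tested extracellular matrix genes 23 were higher and 6 lower (26 and 4 without ZFX12_13 replicate 1), with the collagen-crosslinking LOXL1 (2.29, SE 0.12) and the matrix metalloprotease MMP11 (2.47, SE 0.13) among the largest. Epithelial keratin and junction genes had 13 of 28 higher and 4 lower, the same without that replicate; KRT8 went from 16.6, 15.1 and 15.04 CPM to 53.1, 48.4 and 47.7 CPM (1.67, SE 0.08). YAP and TEAD targets had 11 of 20 higher and 2 lower (10 and 2 without ZFX12_13 replicate 1, 7 higher without replicate 2 or 3), including the transcription factor TEAD3 itself (1.07, SE 0.09). Golgi N-glycan processing genes had 10 of 22 higher and 4 lower (11 and 4 without ZFX12_13 replicate 1), with the mannosidases MAN1C1 (1.53, SE 0.10) and MAN2A2 (0.86, SE 0.11). MAN2A2 was at 60.1 CPM in ZFX12_13 replicate 1 and at 80.3 and 83.4 CPM in the others, all above 41.3 CPM, the highest empty-vector value.

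Stress and metabolic lists were mixed. Heat shock genes had 11 of 22 higher and 2 lower (9 and 2 without ZFX12_13 replicate 1, 7 higher without pCMV6 replicate 2 or 3), with BAG3, a co-chaperone, at 41.7, 43.1 and 43.5 CPM and then at 77.9, 70.2 and 73.2 CPM (0.79, SE 0.06). NRF2 target and glutathione genes had 10 of 21 higher and 2 lower (10 and 3 without ZFX12_13 replicate 1), with ME1 (0.63, SE 0.08), GCLM (0.55, SE 0.06) and GPX4 (0.46, SE 0.06). The p53 targets had 4 of 26 higher and 1 lower, among them TP53INP1 (0.74, SE 0.06), and the BCL2 family 6 of 16 higher and 1 lower, led by the death-promoting BIK (1.63, SE 0.22) and BOK (1.10, SE 0.22). Of 36 HOX genes 1, HOXC10, was higher (0.56, SE 0.09) and 5 were lower. Without ZFX12_13 replicate 1 the counts higher and lower were 4 and 2 for the p53 targets, 6 and 2 for the BCL2 family and 2 and 3 of 37 for the HOX genes.

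Genes of DNA replication and of mitosis had more falls than rises. Of 46 tested replication genes, 22 were lower and 3 higher, with a median of -0.15. ORC1, the largest subunit of the origin recognition complex, was at 117, 113 and 118 CPM with the empty vector and 73.0, 76.2 and 80.9 CPM with ZFX12_13 (-0.60, SE 0.05). The next fall by size, POLA2, was -0.38 (SE 0.08), and 35.1% of its exon bases overlap another gene. The 3 higher genes were CCNE1 (0.66, SE 0.09), the cyclin that drives entry into S phase, CHAF1B (0.33, SE 0.06) and GINS2. Of 40 G2/M and mitosis genes 15 were lower and 3 higher (CDC25C, MYBL2 and ESPL1), with a median of -0.07; ASPM (-0.40, SE 0.05) and the kinesin KIF2C (-0.35, SE 0.05) fell most. These are abundant genes, and in the highest quintile by level 26.8% of all genes were lower. Without ZFX12_13 replicate 1, 31 of the replication genes were lower and 2 higher, and 19 and 5 of the mitosis genes.

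Chromatin and elongation genes, the machinery named in the study's title, moved little. Of 48 tested subunits of histone acetyltransferase complexes 16 were lower and 3 higher (MEAF6, BRD1 and TADA3), with a median of -0.08. These 48 summed to 5683 to 5847 CPM with the empty vector, and in the highest quintile by level 26.8% of all genes were lower. That share is also to be held beside the deacetylase, elongation and tRNA synthetase lists below. EPC1, a scaffold of the NuA4/TIP60 complex, was at 43.7, 45.5 and 44.1 CPM with the empty vector and 32.9, 33.98 and 30.6 CPM with ZFX12_13 (-0.45, SE 0.07). BRD8, a bromodomain subunit of the same complex, was at 131, 124 and 129 CPM and then at 103, 106 and 104 CPM (-0.29, SE 0.05). Neither overlapped between groups. The fall of the MYST acetyltransferase KAT6B (-0.36, SE 0.08) was smallest in replicate 2, at 65.6 CPM against 48.1 CPM in replicate 1. The counts were 19 lower and 6 higher without ZFX12_13 replicate 1, and without pCMV6 replicate 1 10 were lower.

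Of 32 tested histone deacetylases and corepressors 6 were higher and 9 lower. HDAC11 stood out, from 8.38, 8.45 and 8.28 CPM to 43.0, 33.3 and 34.2 CPM (2.14, SE 0.10), and HDAC7 went from 28.3, 27.2 and 26.5 CPM to 46.5, 47.6 and 49.5 CPM (0.81, SE 0.06). The counts were 5 and 8 without ZFX12_13 replicate 1, and 5 were lower without pCMV6 replicate 3. Of 32 pausing and elongation factors of RNA polymerase II 9 were lower and 5 higher, with a median of -0.10; without ZFX12_13 replicate 1 these were 13 and 4. The PAF1 complex subunits CDC73 (-0.35, SE 0.05) and CTR9 (-0.34, SE 0.05) fell, while RTF1 (0.34, SE 0.05), TCEA2 (0.45, SE 0.07), CDK9, CDK13 and ELL rose. Aminoacyl-tRNA synthetases had 7 of 20 lower and 0 higher, and replication-dependent histones 4 of 18 lower and 0 higher; without pCMV6 replicate 1 these counts of lower genes were 3 and 2, and without ZFX12_13 replicate 1 they were 10 and 4. Cytosolic ribosomal proteins had 13 of 76 higher and 0 lower, and 3 higher without ZFX12_13 replicate 1; leaving out single libraries gave from 1 to 25, so no direction is given for the list.

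**Figure D4:**
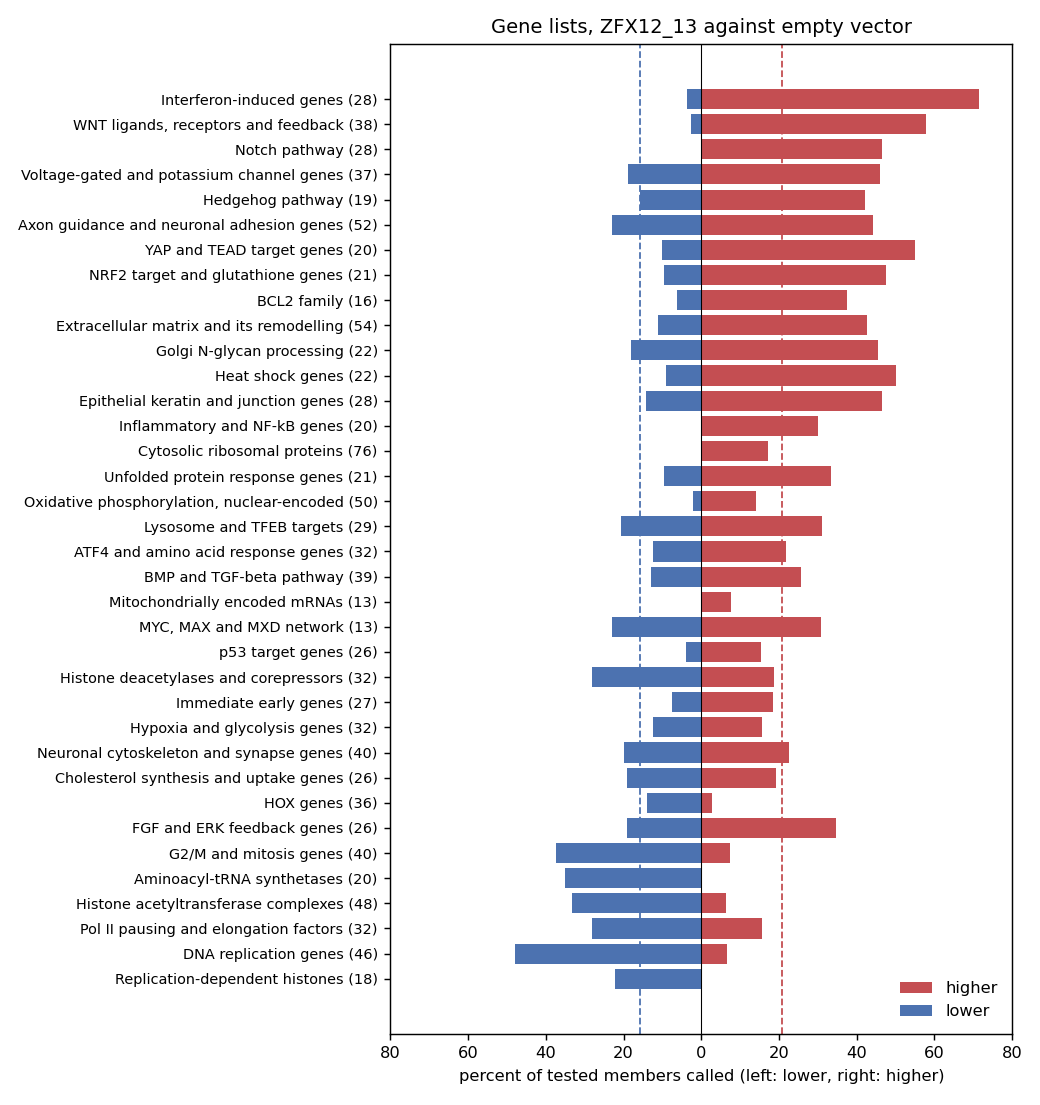
Percent of tested members called higher (red, right) or lower (blue, left) with ZFX12_13 against empty vector, for lists with 13 or more tested members, ordered by median change; the number tested is in brackets and dashed lines mark 20.9% and 15.7% over all genes. Of 28 interferon-induced genes 20 are drawn as higher and of 46 replication genes 22 as lower.

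The construct was next compared with wtZFX. Against the empty vector wtZFX had 4488 genes higher (23.2%) and 3714 lower (19.2%); it shares the empty-vector libraries with ZFX12_13, so the 2 results are not independent. Directly, 1885 genes (9.73%) were higher with ZFX12_13 than with wtZFX and 2059 (10.6%) were lower, of which 562 and 613 differed by 1.5-fold or more. ZFX itself did not pass the test between the 2 constructs.

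The genes named next are the 6 protein-coding genes with the largest difference in each direction among those called in both comparisons, with a mean of 5 CPM or more over the 9 libraries and no overlap between groups. CHRDL2, at 2.64 (SE 0.19) above wtZFX, was under that level. Of the genes higher with ZFX12_13 than with wtZFX, DMTN, which encodes the membrane-skeleton protein dematin, was at 4.21, 4.46 and 4.04 CPM with the empty vector, at 8.74, 6.98 and 8.33 CPM with wtZFX and at 47.1, 43.5 and 45.2 CPM with ZFX12_13. The log2 difference between the constructs was 2.49 (SE 0.09, adjusted p = 2.3e-15). ACTRT3, an actin-related protein, was at 3.30, 2.91 and 3.38 CPM with the empty vector, 3.68, 2.54 and 3.23 CPM with wtZFX and 19.7, 18.0 and 15.8 CPM with ZFX12_13. ACTRT3 was thus at the empty-vector level with wtZFX (log2 difference -0.02, SE 0.17) and 2.50 (SE 0.14) higher with ZFX12_13 than with wtZFX; 12.3% of its exon bases overlap another gene. The potassium channel subunit KCNS1 (2.60, SE 0.16), ADAMTS8 (2.42, SE 0.11), LOXL4 (2.37, SE 0.11) and the transporter ABCC11 (2.30, SE 0.13) completed the 6. NEFH showed the same order, at 1.47, 1.60 and 2.24 CPM with wtZFX, 1.84 (SE 0.20) lower than with ZFX12_13 and near its empty-vector level.

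Of the genes lower with ZFX12_13 than with wtZFX, MAFA, a transcription factor known from pancreatic beta cells, was at 5.61, 5.63 and 5.75 CPM with the empty vector, 11.8, 10.4 and 10.9 CPM with ZFX12_13 and 44.7, 45.8 and 46.1 CPM with wtZFX. The difference was -2.04 (SE 0.08, adjusted p = 7.1e-15). The 3 groups were narrow and did not overlap, with ZFX12_13 nearer to the empty vector. AHNAK2, a giant scaffold protein, was at 15.6, 15.6 and 15.3 CPM, then at 33.2, 49.3 and 46.9 CPM with ZFX12_13 and 143, 142 and 127 CPM with wtZFX (-1.67, SE 0.11). The rest of the 6 were RTN4RL1, a Nogo-receptor homolog (-1.82, SE 0.17), the forkhead gene FOXL1 (-1.82, SE 0.12), SLC22A31 (-1.70, SE 0.10) and the membrane metalloprotease MMP17 (-1.66, SE 0.09).

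**Figure D5:**
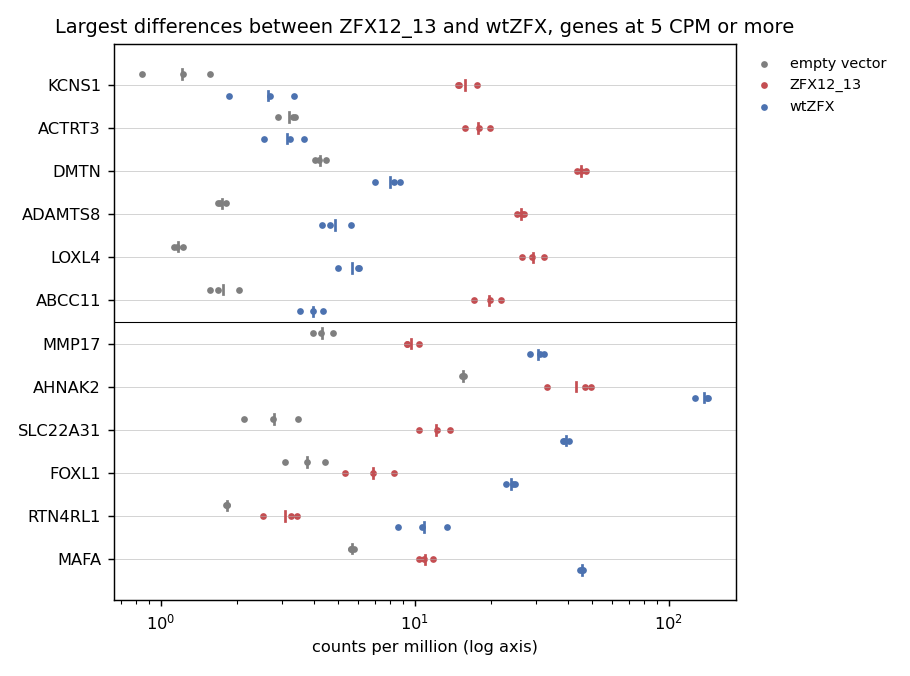
CPM (log axis) in each library for the 6 genes most above and the 6 most below wtZFX with ZFX12_13 among called genes at a mean of 5 CPM or more over the 9 libraries, split by the horizontal line, with a bar at each group mean. In the upper genes ZFX12_13 lies highest, with wtZFX at or between the empty vector and it; in the lower genes wtZFX lies highest.

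For the list counts between the constructs, the shares over all genes are 9.73% higher and 10.6% lower, and differences between lists were not tested. Without ZFX12_13 replicate 1 the counts over all genes were 2155 higher and 2385 lower, but the list counts were not made without it. That replicate had the lowest sum of its group for the Notch, axon guidance, matrix, WNT and acetyltransferase lists. For the matrix list its sum was 2316 CPM, against 2705 and 2839 CPM. For the p53 and BCL2 lists its sum was the highest. The part of that replicate in these counts was not tested. Notch genes had 2 of 28 higher and 10 lower with ZFX12_13 than with wtZFX, axon guidance genes 5 of 52 higher and 20 lower, and matrix genes 3 of 54 higher and 17 lower. In the other direction p53 targets had 10 of 26 higher and 2 lower, the BCL2 family 7 of 16 higher and 1 lower, and histone acetyltransferase subunits 9 of 48 higher and 2 lower. WNT genes split, 7 of 38 higher and 12 lower. Single ligands show the split: WNT3A was at 24.5, 22.1 and 24.5 CPM with ZFX12_13 and 8.10, 5.93 and 6.63 CPM with wtZFX (1.78, SE 0.11), whereas WNT7B was at 24.98, 23.0 and 25.4 CPM with wtZFX, above all ZFX12_13 libraries (-0.89, SE 0.10).

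LN-229 libraries, which share no library with the 293T comparison, gave a readout in the other direction, since siZFX lowers ZFX there (log2 difference -1.66, SE 0.13). In that line 2439 genes (13.8% of 17684 tested) were higher with siZFX than with siControl and 3025 (17.1%) were lower. Of 3276 genes higher with ZFX12_13 and tested in both lines, 1234 (37.7%) were lower with siZFX and 241 (7.36%) higher, with a median of -0.24. Of 2836 genes lower with ZFX12_13, 314 (11.1%) were lower with siZFX and 770 (27.2%) higher, with a median of 0.13. Over all 15973 genes tested in both lines the shares were 17.8% lower and 14.5% higher. As a share of the siZFX side, the 1234 genes are 43.4% of the 2841 genes lower with siZFX, against 20.5% of all 15973 genes that were higher with ZFX12_13. The 770 genes are 33.3% of the 2313 genes higher with siZFX, against 17.8% of all that were lower with ZFX12_13. Of the 12 leading rises only 3 were expressed enough in LN-229 to be tested.

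Among protein-coding genes at 5 CPM or more in both lines, the 8 with the strongest opposite movement were CEP112, DPYSL4, RAB36, ZDHHC1, TMEM121, ZNF319, TRPV4 and DMTN, chosen by the smaller of the 2 changes. CEP112, a centrosomal protein, was at 3.85, 4.65 and 3.84 CPM with the empty vector and 24.6, 23.4 and 22.3 CPM with ZFX12_13 (2.51, SE 0.11). In LN-229 it was at 9.53, 9.01 and 9.66 CPM with siControl and 0.620, 0.648 and 1.30 CPM with siZFX (-3.44, SE 0.34). RAB36, a small GTPase, went from 3.89, 4.41 and 3.94 CPM to 25.4, 28.3 and 25.5 CPM (2.69, SE 0.10), and in LN-229 from 25.6, 28.1 and 22.0 CPM to 6.46, 5.83 and 7.11 CPM (-1.96, SE 0.14). DPYSL4 fell in LN-229 from 40.8, 36.7 and 40.7 CPM to 5.84, 6.11 and 5.51 CPM (-2.76, SE 0.15). The groups did not overlap in either line for these genes. The log2 changes of ZDHHC1, a palmitoyltransferase, were 1.76 (SE 0.10) with ZFX12_13 and -1.89 (SE 0.18) with siZFX. Those of the zinc finger gene ZNF319 were 1.60 (SE 0.09) and -2.76 (SE 0.19), and those of the calcium channel TRPV4 1.71 (SE 0.13) and -1.58 (SE 0.11). TMEM121 had 2.14 (SE 0.09) and -1.67 (SE 0.17), and DMTN 3.42 (SE 0.10) and -1.56 (SE 0.21). MAN2A2 and HDAC11, described with their lists and the latter under that level in LN-229, had siZFX changes of -3.01 (SE 0.10) and -2.61 (SE 0.35). Of the 3 leading rises tested in LN-229, ANO1 was lower with siZFX (-0.98, SE 0.14). IL11 (0.16, SE 0.22) and MAP6 (-2.38, SE 0.95, under 1 CPM in every siControl and siZFX library) did not pass the test. Of the 11 leading falls tested there, 5 were higher with siZFX and 0 lower.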

How the data were processed

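RNA-seq was made from total RNA of 24 cell-line libraries, 9 of them from 293T DKO cells. The authors deposited read counts per gene, with an unstranded column and 1 for each strand; STAR, HTSeq, DESeq2 and hg38 are listed in the submitters' processing notes, without versions or roles. Reads fell evenly on both strands, so the unstranded counts were used, and reads from overlapping genes cannot be told apart. All 58721 gene IDs match GENCODE 29 on GRCh38, which gave symbols and coordinates.

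Counts of the 9 DKO libraries were filtered with filterByExpr, scaled with TMM and fitted with edgeR 4.0.16 (R 4.3.3) with 1 coefficient per group. The robust quasi-likelihood test was used, with Benjamini-Hochberg adjustment over all 19376 genes and calls at an adjusted p under 0.05. The 15 LN-229 libraries were fitted apart (17684 genes). An SE is the log2 change divided by the square root of F. The biological coefficient of variation was 5.26%. Counts were also simulated from the fitted spread, with 67 genes changed 1.5-fold, 67 changed 2-fold and 66 changed 4-fold. Of these, 67.2%, 79.1% and 95.5% were recovered, with 12 false calls among the other genes of the 19376. The simulation held far fewer changed genes than were called here and no library set apart like ZFX12_13 replicate 1. It therefore gives no rate of false calls for the data themselves.

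Named genes are ZFX and ZNF711; the 12 largest rises and falls among called protein-coding genes with a mean of 5 CPM or more and no overlap between groups; up to 4 called members per list by size of change; 6 genes in each direction against wtZFX, called there and against the empty vector, with a mean of 5 CPM or more over the 9 libraries and no overlap; and 8 protein-coding genes higher with ZFX12_13 and lower with siZFX, at 5 CPM or more in both lines. Members of a list named because they went against its direction or were few were chosen after their values were seen. The comparison, its members, the 38 gene lists and the 5 marker lists were chosen with earlier results of these data known. Alternatives were other scalings and filters, DESeq2 1.42.0, fits to 2 groups, a replicate block, both stranded columns, ZFX left out and each library left out. P-values measure the spread between the libraries of a group; labels do not say whether they came from separate transfections. Some list and marker members are not reported here.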

Additional observations from a re-analysis of the deposited data

How the results depend on the processing

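Under the other scalings, filters, DESeq2, fits to 2 groups, strand choice, ZFX left out and each library left out, the genes higher with ZFX12_13 than with the empty vector numbered from 3553 to 4586 and the lower genes from 2255 to 3549, each within 1.5 times the reported count. Upper-quartile scaling gave 3799 higher and 3549 lower, a shift in the share higher from 57.1% to 51.7%. Asking in addition for at least 1.5-fold, the counts were 1936 higher and 341 lower against the empty vector, 562 and 613 against wtZFX, 2197 and 530 for wtZFX against the empty vector, and 839 and 1603 for siZFX; a fit to the siZFX and siControl libraries alone gave 3775 genes higher with siZFX. The cause of that last difference was not tested.

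With a replicate block, 4039 genes were higher and 3068 lower with ZFX12_13 than with the empty vector. Deviations from the group mean had correlations from -0.04 to 0.04 between same-numbered libraries and from -0.09 to 0.10 between differently numbered ones. Values this small cannot show whether same-numbered libraries were prepared together. Of 193 named gene values 172 kept their side of the threshold under every alternative tried, and none of the 193 changed sign. Those that lost it under at least 1 were small or weakly expressed, such as MGA (-0.09 without ZFX12_13 replicate 1 against -0.20) and CHAC1. Among the lists described, small counts also moved by over 1.5 times under at least 1 alternative: those lower for the Notch, WNT, BMP, synapse, channel, matrix, junction, p53, BCL2, NRF2, Golgi and YAP lists, those higher for the acetyltransferase, pausing and G2/M lists, and both for the HOX genes. Depth limits calls below about 1 CPM.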

Other observations

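Zinc finger genes named ZNF, which encode mostly KRAB-type repressors, were not among the lists and were counted after the values had been seen. Of 453 tested, 56 (12.4%) were higher and 126 (27.8%) lower with ZFX12_13 than with the empty vector. Over all 14581 protein-coding genes the shares were 24.7% and 17.9%. Falls were also more frequent among genes with long exons and among those at a high empty-vector level, as given above. Neither was matched here, and the ZNF genes were not counted without ZFX12_13 replicate 1. Their counts are thus a description only. ZNF221 and ZNF235 were among the 12 largest falls. Long non-coding RNAs annotated as lincRNA had 130 of 1152 higher (11.3%) and 112 lower (9.72%), against 20.9% and 15.7% over all genes tested. Their level was not matched either.

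Lysosome genes and TFEB targets had 9 of 29 higher and 6 lower, and 10 and 7 without ZFX12_13 replicate 1. TFEB, the transcription factor that drives lysosome genes, went from 12.9, 10.2 and 10.7 CPM to 31.6, 27.9 and 30.3 CPM (log2 difference 1.41, SE 0.09), and CTSB, a cathepsin, from 50.5, 50.7 and 47.9 CPM to 81.5, 79.9 and 79.8 CPM (0.69, SE 0.05). Hypoxia and glycolysis genes had 5 of 32 higher and 4 lower, with a median of -0.02. These were 6 and 4 without ZFX12_13 replicate 1, and 3 and 2 without pCMV6 replicate 1 or 2. Among them EPAS1 rose from 20.01, 21.3 and 16.9 CPM to 38.5, 43.8 and 43.3 CPM (1.11, SE 0.08). Unfolded protein response genes had 7 of 21 higher and 2 lower, the same without ZFX12_13 replicate 1, and 4 higher without pCMV6 replicate 2. Among these CRELD2 rose from 46.3, 45.5 and 48.3 CPM to 82.3, 72.6 and 71.97 CPM (0.70, SE 0.06).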
